A study of Mus musculus with 24 samples.

Results

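Liver RNA of mice fed a diet with 0 ppm selenium was compared with liver RNA of mice fed 0.1 ppm. All mice were male C57BL/6J, an inbred laboratory strain, had eaten normal chow, and were moved at 8 weeks of age to 1 of 4 diets for 5 weeks, the 0 ppm and 0.1 ppm diets compared here or diets with 0.4 ppm and with 2.25 ppm. Each diet gave 3 liver and 3 brain libraries, 24 in all, from pieces of whole organ, so the 0 against 0.1 ppm comparison in liver rests on 3 libraries against 3, here named a, b and c within each diet in the order of the deposited columns. Of the 21894 genes in the deposited table, 18051 had a value of at least 1 in at least 3 of these 6 libraries and were tested. Values are normalized reads, that is read counts divided by 1 size factor per library, and the 6 libraries held 12978641 to 18441926 reads on genes, so that 3 reads corresponded to 3.12 to 4.40 normalized reads. The labels do not say whether the libraries of a diet are separate mice. The spread that the p-values rest on is that between libraries and may be technical. The labels also give no hour of collection and no time since the last meal.

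Selenium enters proteins as selenocysteine, an amino acid that ribosomes insert at a UGA codon when the mRNA carries a selenocysteine insertion element. The liver takes up dietary selenium and exports it as selenoprotein P, the plasma carrier that supplies other organs. Several selenoprotein mRNAs are degraded when selenium is short, because the UGA is then read as a stop, while others are held nearly constant, an order known as the selenoprotein hierarchy. Besides this, hepatocytes make glucose between meals, burn and store fat, detoxify ammonia through the urea cycle, run the methionine cycle, clear foreign compounds and secrete most plasma proteins, and many of these genes follow feeding, hormones and the circadian clock.

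Across the liver transcriptome, more genes were lower than higher on the selenium-free diet. With limma, 1198 genes passed an adjusted p of 0.05 (Benjamini-Hochberg over all genes tested), 6.64% of those tested. Of these, 364 were higher at 0 ppm (2.02%) and 834 lower (4.62%). These shares are the background for the counts of called list members given below. The median change was 1.58-fold among the higher and 1.53-fold among the lower genes, and 77 and 192 of them changed at least 2-fold. The 3 libraries of each diet did not overlap in 349 of the 364 and 812 of the 834 genes, and in 4130 genes tested in all (22.9%). Lower genes made up 69.6% of the calls, and 58.7% after quantile normalization, so the imbalance depends in part on scaling. The number of calls also depended on single libraries: it was 562 with 0 ppm a left out, 560 with 0.1 ppm b left out and 614 with 0.1 ppm c left out, but 1487 with 0 ppm c left out. It fell to 428 when only the 6 libraries set the spread. Of the 184 called genes named by rule, 78 kept their call in each of 17 alternative fits, and none reversed. The genes described below are mostly of those 78, and for most of the others each library whose absence ended the call is given.

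**Figure D1:**
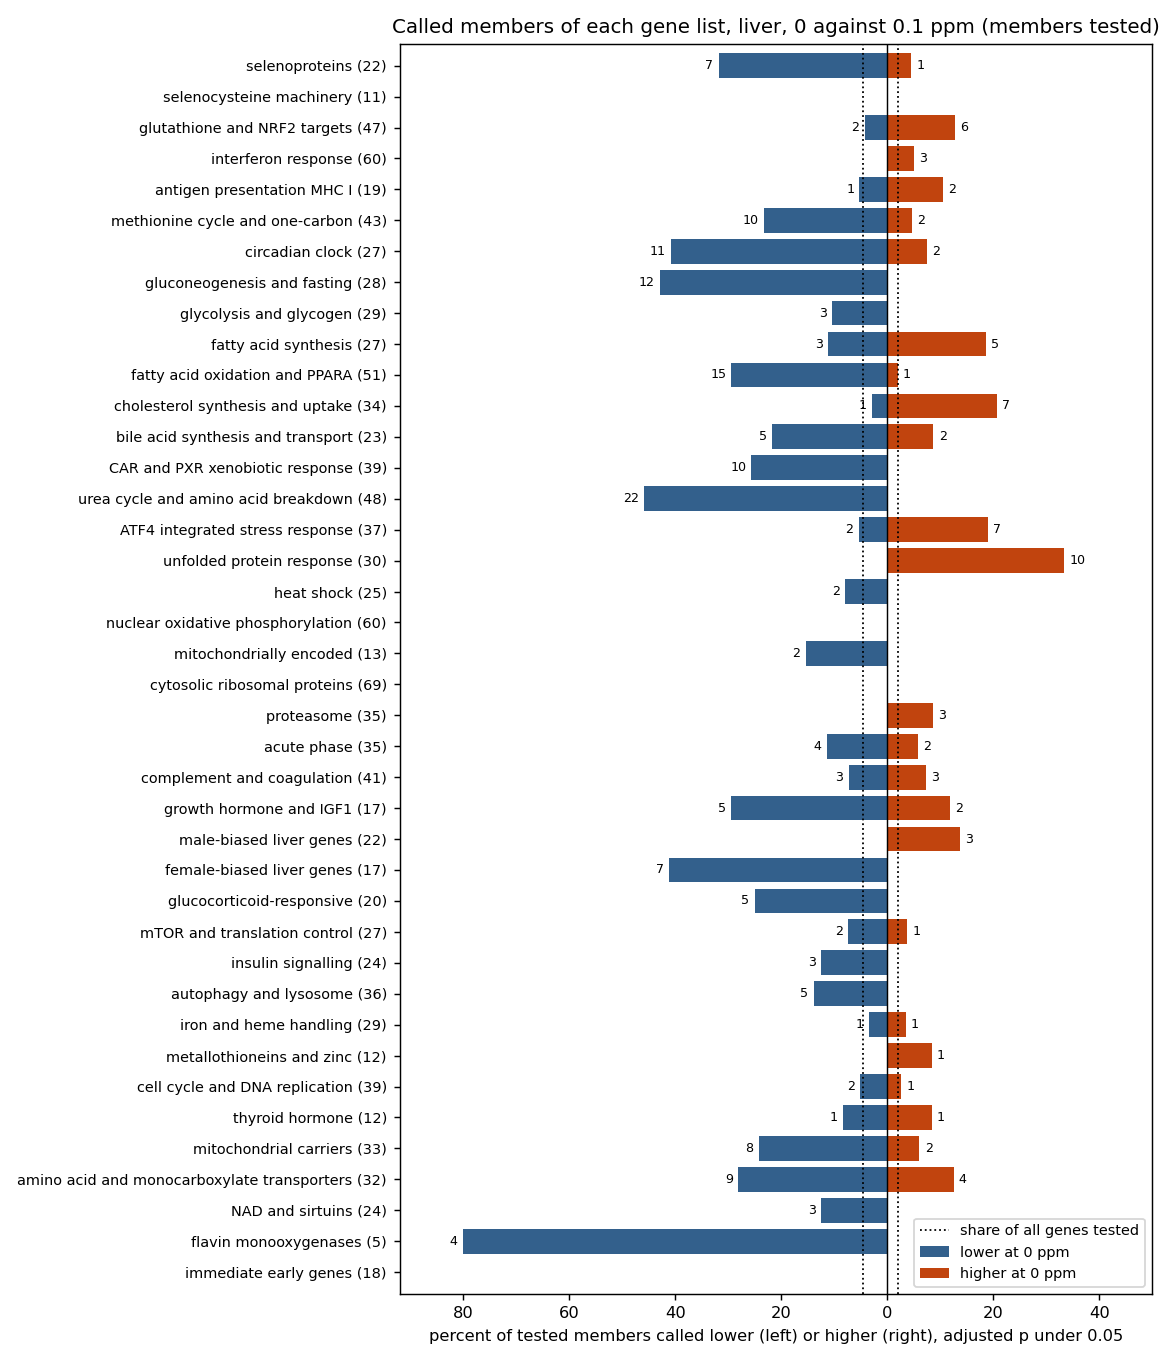
Each bar is the percent of a gene list's tested members that were called lower (left) or higher (right) at 0 ppm than at 0.1 ppm in liver, with the number tested in brackets. Dotted lines mark the shares over all 18051 genes, 4.62% lower and 2.02% higher. Amino acid breakdown (22 of 48 lower), fasting genes (12 of 28 lower) and the clock (11 of 27 lower) reach far left, and the unfolded protein response (10 of 30 higher) reaches farthest right among the lists of 30 or more genes.

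The makeup of the samples was read from marker genes. Summed hepatocyte markers, 14 genes of secreted plasma proteins and the like, held 1648061 to 1932728 at 0 ppm against 2133353 to 2551455 at 0.1 ppm, and 4 of the 14 were called lower. Summed periportal markers, genes of hepatocytes near the incoming blood, were 1031639.5 to 1363249.6 at 0 ppm against 1505454 to 1865507 at 0.1 ppm, with 6 of 12 called lower. Summed pericentral markers were 269285 to 297014 at 0 ppm against 325759 to 377869 at 0.1 ppm, with 4 of 14 lower. None of these 3 sums overlapped between diets. The number of lower hepatocyte markers was 2 with 0.1 ppm b or 0.1 ppm c left out, and that of lower pericentral markers was 1 with 0 ppm a, 0.1 ppm b or 0.1 ppm c left out. Cholangiocyte markers (bile duct) summed to 1715 to 2292 at 0 ppm against 1158 to 1213 at 0.1 ppm, with 2 of 8 called higher, among them Spp1, while Krt19 (17.7, 40.03 and 21.97 at 0 ppm against 13.98, 30.5 and 19.1 at 0.1 ppm) and Epcam (16.6, 43.8 and 31.6 at 0 ppm against 23.8, 12.5 and 14.7 at 0.1 ppm) overlapped between diets. The number of higher cholangiocyte markers was 1 with 0 ppm a, 0 ppm b, 0.1 ppm a or 0.1 ppm c left out and 0 with 0.1 ppm b left out. Endothelial markers summed to 9711 to 10546 at 0 ppm against 11335 to 12813 at 0.1 ppm, with 2 of 17 called lower, a count that was 1 with 0 ppm b, 0.1 ppm a or 0.1 ppm c left out. Stellate and fibroblast markers summed to 8488 to 10589.8 at 0 ppm against 9864 to 10879 at 0.1 ppm, with 3 of 13 called lower, a count that was 0 with 0 ppm a, 0.1 ppm a, 0.1 ppm b or 0.1 ppm c left out and 1 with 0 ppm b left out. Neutrophil markers summed to 91.3 to 211 at 0 ppm against 70.4 to 105 at 0.1 ppm, all 9 tested lay above 0 (median log2 change 1.21) and none passed. No Kupffer cell, B cell, T and NK cell or erythroid marker was called. The share called, against 6.64% over all genes, was 28.6% of hepatocyte, 50% of periportal and 28.6% of pericentral markers. It was 25% of cholangiocyte, 11.8% of endothelial and 23.1% of stellate and fibroblast markers. In bulk tissue, fewer cells of a type and less RNA per cell cannot be told apart, and the part of these shifts in the results below was not tested. Library 0 ppm c stood apart from 0 ppm a and b for several clock and hormone-driven genes, which is given where they are described. Over all genes, the pairs with 0 ppm b differed most. Libraries 0 ppm a and b differed by 49.0, b and c by 62.0, and a and c by 28.8 times what counting alone gives.

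Among selenoprotein transcripts a few separated the diets sharply and most did not pass. Of 24 selenoprotein genes, 22 were measured above the filter, and 7 were lower and 1 higher, with a median log2 change of -0.26 against -0.01 over all genes tested. Called members made up 36.4%, against 6.64% over all genes. Selenow, a small redox protein known as a sensitive marker of selenium status, had 311, 354 and 361 normalized reads in the 0 ppm libraries, against 1081, 1031 and 1096 in the 0.1 ppm libraries (log2 change -1.64, SE 0.08, adjusted p = 3.12e-07). Every 0 ppm library lay below every 0.1 ppm library, with a wide gap and little scatter within either diet. Gpx1, the cytosolic glutathione peroxidase that reduces hydrogen peroxide (chr9:108338903-108340343, GRCm38), had 9649, 11640.1 and 10201 normalized reads in the 0 ppm libraries, against 26811, 25798 and 28308 in the 0.1 ppm libraries (log2 change -1.36, SE 0.09, adjusted p = 3.45e-06). The groups again did not overlap. Selenoh, a nuclear redox protein, had 43.7, 60.04 and 61.8 normalized reads in the 0 ppm libraries, against 149.6, 118 and 122 in the 0.1 ppm libraries (log2 change -1.23, SE 0.17, adjusted p = 0.000784), a low transcript in all 6 libraries and clearly lower in the 3 at 0 ppm. Both mitochondrial selenoproteins of the list fell by less than these. Txnrd2, the mitochondrial thioredoxin reductase, had 355, 351 and 339 normalized reads in the 0 ppm libraries, against 508, 497 and 525 in the 0.1 ppm libraries (log2 change -0.55, SE 0.11, adjusted p = 0.00875), and Selenoo, a mitochondrial enzyme that attaches AMP to proteins, had 531, 630.4 and 662 at 0 ppm against 859.9, 1023 and 924 at 0.1 ppm (log2 change -0.62, SE 0.10, adjusted p = 0.00254). Neither gene's diets overlapped.

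Other called members moved less. Msrb1, which repairs oxidized methionine, had 4000.0, 4220.2 and 4439 normalized reads in the 0 ppm libraries, against 5281, 5293 and 5470.1 in the 0.1 ppm libraries (log2 change -0.34, SE 0.07, adjusted p = 0.0075). Its libraries did not overlap, but the call was lost with only the 6 libraries (adjusted p = 0.0619) and under quantile normalization (adjusted p = 0.0568). Selenop, the plasma selenium carrier, had 97371, 92171 and 94939 normalized reads in the 0 ppm libraries, against 125394, 152329 and 144094 in the 0.1 ppm libraries (log2 change -0.56, SE 0.13, adjusted p = 0.0183). Selenop missed the threshold without 0 ppm a (0.0525), 0.1 ppm b (0.0913) or 0.1 ppm c (0.0799). Selenoi, the ethanolamine phosphotransferase that makes phosphatidylethanolamine, was the selenoprotein transcript that went up, with 1705, 1677 and 1381 normalized reads in the 0 ppm libraries, against 1161, 1056 and 1078 in the 0.1 ppm libraries (log2 change 0.53, SE 0.09, adjusted p = 0.00276), and the lowest 0 ppm library stood above the highest 0.1 ppm library. The other 14 measured members did not pass. Among them, Gpx4, the phospholipid hydroperoxide glutathione peroxidase, had 4037, 4373 and 3608 at 0 ppm against 3616, 3783 and 3634 at 0.1 ppm (adjusted p = 0.417), Txnrd1, the cytosolic thioredoxin reductase, had 2871, 2286 and 2381 at 0 ppm against 2501, 2632 and 2660.3 at 0.1 ppm (adjusted p = 0.782), and Dio1, the deiodinase that activates thyroid hormone, had 3645, 3535 and 3656 at 0 ppm against 4979, 3960.3 and 3859.9 at 0.1 ppm (adjusted p = 0.25). Groups overlapped for Gpx4 and Txnrd1 and only just parted for Dio1. None of the 11 genes of the selenocysteine insertion machinery passed (median log2 change 0.01). Sephs2, itself a selenoprotein, makes the selenium donor and had 13498, 15435 and 14941 at 0 ppm against 11469.6, 13498 and 13111 at 0.1 ppm (adjusted p = 0.258).

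**Figure D2:**
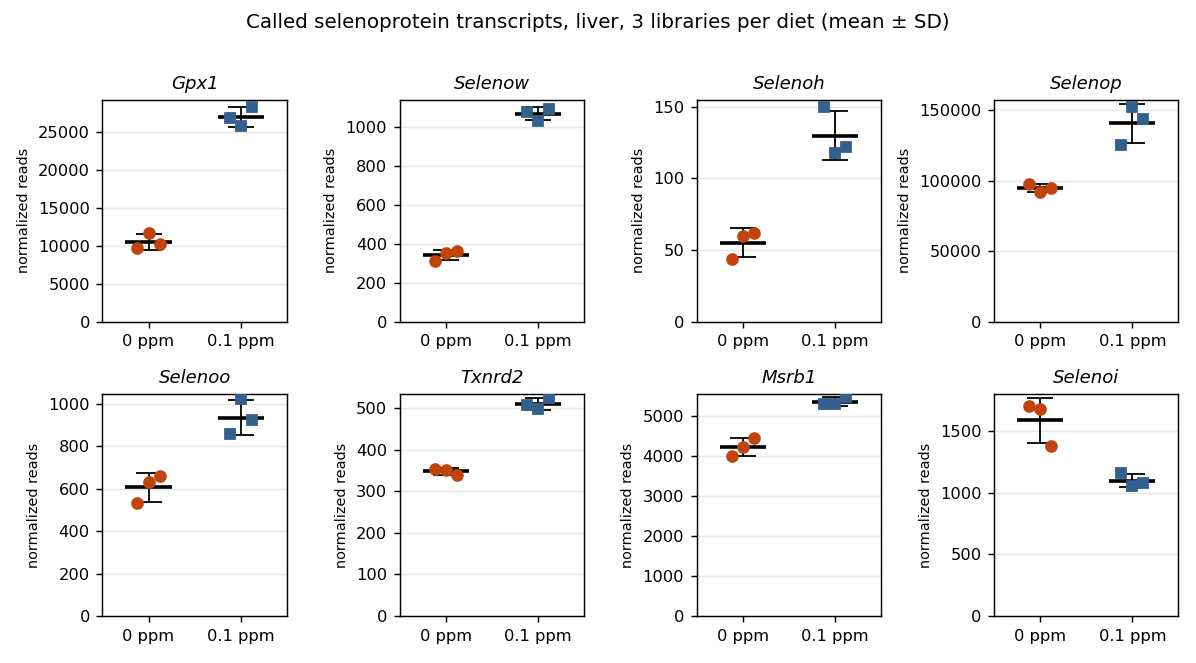
Points are single liver libraries of the 8 called selenoprotein transcripts, in normalized reads on axes from 0, with the mean and SD of 3 per diet, 0 ppm left and 0.1 ppm right. Selenow averaged 342 at 0 ppm against 1069 at 0.1 ppm, and Selenoi is the transcript that is higher at 0 ppm.

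Outside the selenoproteins, the largest decreases were of a mixed set of genes. Mfsd2a, a lysophosphatidylcholine transporter that fasting induces in mouse liver (chr4:122946850-122961188, GRCm38), had 699.8, 818 and 633 normalized reads in the 0 ppm libraries, against 2901, 3376 and 3025 in the 0.1 ppm libraries (log2 change -2.12, SE 0.14, adjusted p = 3.45e-06). The 0 ppm libraries were tightly grouped and far below the others. Acot3, a peroxisomal acyl-CoA thioesterase, had 43.7, 63.8 and 30.2 normalized reads in the 0 ppm libraries, against 209.7, 662 and 879.9 in the 0.1 ppm libraries (log2 change -3.47, SE 0.45, adjusted p = 0.000687), the largest decrease the rule named. All 0.1 ppm libraries were higher, but they varied widely among themselves, and reads may be shared with its near-identical neighbours Acot1 and Acot2 on chromosome 12. Slc16a5, a monocarboxylate transporter family member, had 87.3, 57.5 and 70.02 normalized reads in the 0 ppm libraries, against 256, 378 and 634 in the 0.1 ppm libraries (log2 change -2.46, SE 0.31, adjusted p = 0.00055). Eif4ebp3, a repressor of cap-dependent translation, had 101, 63.8 and 222 at 0 ppm against 464, 868 and 782 at 0.1 ppm (log2 change -2.58, SE 0.35, adjusted p = 0.000788). Neither overlapped between diets. Upp2, a liver uridine phosphorylase, had 2478, 5586 and 7930.4 normalized reads in the 0 ppm libraries, against 19693, 21924 and 22431 in the 0.1 ppm libraries (log2 change -2.15, SE 0.31, adjusted p = 0.00134), with 0 ppm a lowest and still no overlap. Map2k6, a kinase that activates p38, had 32.2, 26.3 and 65.9 at 0 ppm against 252, 207 and 176 at 0.1 ppm (log2 change -2.42, SE 0.28, adjusted p = 0.000287). Gpcpd1, which cleaves glycerophosphocholine, had 2673, 2882 and 4173 at 0 ppm against 12837, 13427 and 11188 at 0.1 ppm (log2 change -1.97, SE 0.28, adjusted p = 0.00119). Both separated the diets fully. Also among the 15 largest decreases, Sftpa1, a surfactant protein best known from lung, changed by -2.02 on the log2 scale and Fbf1, a centriole protein, by -1.92. The named decreases of Mfsd2a, Acot3, Slc16a5, Eif4ebp3, Upp2, Map2k6, Gpcpd1, Sftpa1 and Fbf1 held in each alternative fit.

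The largest increases were likewise mixed. Osgin1, an oxidative stress-induced growth inhibitor and known NRF2 target, had 4326, 4631 and 4977 normalized reads in the 0 ppm libraries, against 1397, 1174 and 1638 in the 0.1 ppm libraries (log2 change 1.74, SE 0.22, adjusted p = 0.000568). The lowest 0 ppm library was well above the highest 0.1 ppm library. Osgin1 was also above every 0.1 ppm library in the higher diets. It had 3157, 2413.5 and 4929 at 0.4 ppm and 5761, 3733 and 5817 at 2.25 ppm. Slc25a30, a mitochondrial inner membrane carrier, had 981, 657 and 1367 normalized reads in the 0 ppm libraries, against 228, 243 and 216 in the 0.1 ppm libraries (log2 change 2.06, SE 0.38, adjusted p = 0.0057). The 0 ppm libraries were uneven, with c highest, and all above the 0.1 ppm libraries. Inhba, the activin A subunit, had 85.3, 57.5 and 98.9 normalized reads in the 0 ppm libraries, against 25.2, 29.2 and 24.9 in the 0.1 ppm libraries (log2 change 1.54, SE 0.21, adjusted p = 0.000774), and Spon2, a secreted matrix protein, had 279, 345 and 141 at 0 ppm against 86.7, 47.2 and 54.3 at 0.1 ppm (log2 change 1.96, SE 0.31, adjusted p = 0.0026). Both parted the diets. Dtx4, a ubiquitin ligase of the Deltex family, had 356, 360.2 and 129 at 0 ppm against 67.1, 70.8 and 87.99 at 0.1 ppm (log2 change 1.76, SE 0.29, adjusted p = 0.00336), with library 0 ppm c closest to the 0.1 ppm libraries. Ddc, which decarboxylates L-DOPA and 5-hydroxytryptophan, had 2503, 2983 and 1175 at 0 ppm against 809.6, 680.2 and 868 at 0.1 ppm (log2 change 1.40, SE 0.27, adjusted p = 0.00708), again with 0 ppm c lowest of its diet. Slc30a10, a manganese exporter, was also lowest in 0 ppm c among the 0 ppm libraries, with 1302, 1112 and 404 at 0 ppm against 263, 276 and 232 at 0.1 ppm (log2 change 1.70, SE 0.33, adjusted p = 0.00843). Dhrs9, a retinol and steroid dehydrogenase, had 101, 61.3 and 28.8 normalized reads in the 0 ppm libraries, against 9.79, 9.72 and 7.33 in the 0.1 ppm libraries (log2 change 2.54, SE 0.53, adjusted p = 0.012), a rise of low-level reads in which the 0 ppm libraries differed among themselves. Dhrs9 missed the threshold without 0 ppm a (0.0668) or 0.1 ppm c (0.0514). Serpina7, which carries thyroid hormone in plasma, had 2419, 1192 and 1659.9 at 0 ppm against 987, 589 and 504 at 0.1 ppm (log2 change 1.34, SE 0.28, adjusted p = 0.011). Serpina7 missed the threshold without 0 ppm a (0.0555), 0.1 ppm b (0.0553) or 0.1 ppm c (0.0582). Osgin1, Slc25a30, Inhba, Spon2 and Dtx4 held in each alternative fit.

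Many genes that break down amino acids and dispose of their nitrogen were lower on the selenium-free diet. Of 48 tested genes of the urea cycle and amino acid breakdown, 22 fell and none rose, with a median log2 change of -0.28, against 4.62% lower over all genes. The count was 14 with 0.1 ppm b or 0.1 ppm c left out. Cps1, the mitochondrial entry enzyme of the urea cycle, had 52053, 58921 and 57223 normalized reads in the 0 ppm libraries, against 83341, 103365 and 109680.0 in the 0.1 ppm libraries (log2 change -0.81, SE 0.13, adjusted p = 0.00327). Ass1, which joins citrulline to aspartate, had 25710.4, 27748 and 24605 at 0 ppm against 36155, 48958 and 53018 at 0.1 ppm (log2 change -0.81, SE 0.13, adjusted p = 0.00317). Every 0 ppm library of either gene was below every 0.1 ppm library. Asl, which splits argininosuccinate, fell more than Cps1, Ass1 or Arg1, with 5599, 6586 and 6630.1 normalized reads in the 0 ppm libraries, against 13247, 16821 and 19373 in the 0.1 ppm libraries (log2 change -1.38, SE 0.13, adjusted p = 6.55e-05). Arg1, arginase, had 17276, 19804 and 20059 at 0 ppm against 28535, 30081 and 30624 at 0.1 ppm (log2 change -0.65, SE 0.11, adjusted p = 0.00418), a narrower gap without overlap. Slc25a13, the aspartate-glutamate carrier that feeds the cycle, had 4159, 4495 and 4550.1 at 0 ppm against 6112, 6775 and 7185 at 0.1 ppm (log2 change -0.60, SE 0.08, adjusted p = 0.00055). Upstream of the cycle, Gls2, liver glutaminase, had 3007, 3725 and 4045 at 0 ppm against 5717, 6409 and 6335 at 0.1 ppm (log2 change -0.79, SE 0.10, adjusted p = 0.000608), and Gpt, which moves the amino group of alanine, had 2992, 3559.8 and 3711 at 0 ppm against 5572, 6124 and 6897 at 0.1 ppm (log2 change -0.86, SE 0.10, adjusted p = 0.000477). Dbt, a subunit of the branched-chain ketoacid dehydrogenase, changed by -0.65 on the log2 scale (adjusted p = 0.001). The diets did not overlap for these 3 genes. By contrast, Glul, glutamine synthetase, had 17754, 17268 and 18645 at 0 ppm against 19852, 22615 and 22555 at 0.1 ppm (adjusted p = 0.0668), and Hgd, of tyrosine breakdown, had 10605, 11349 and 9461 at 0 ppm against 11976, 13539.7 and 13389 at 0.1 ppm (adjusted p = 0.0672). The summed periportal markers, which include urea cycle genes, were lower as given above, and their part in this result was not tested. Cps1, Ass1, Asl, Arg1, Slc25a13, Gls2, Gpt and Dbt held in each alternative fit.

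**Figure D3:**
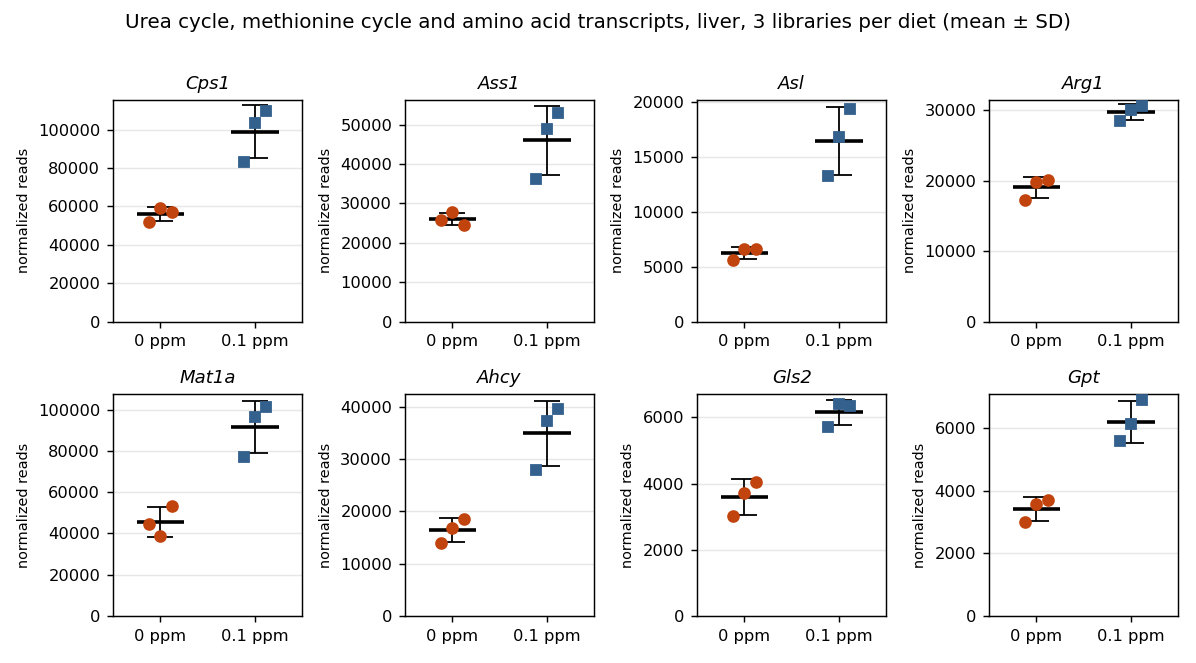
Points are single liver libraries of 8 transcripts of the urea cycle, methionine cycle and amino acid breakdown, in normalized reads on axes from 0, with the mean and SD of 3 per diet, 0 ppm left and 0.1 ppm right. In each panel all 0 ppm libraries lie below all 0.1 ppm libraries, from Arg1 (log2 change -0.65) to Asl (-1.38).

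Of 43 tested methionine cycle and one-carbon genes, 10 fell, 2 rose and 31 did not pass (median log2 change -0.22). Called members made up 27.9%, against 6.64% over all genes. The count of lower members was 4 with 0 ppm a or 0.1 ppm b left out and 5 with 0.1 ppm c left out, and that of higher members was 0 with 0 ppm a, 0.1 ppm b or 0.1 ppm c left out, 1 with 0 ppm b left out and 6 with 0 ppm c left out. With only the 6 libraries setting the spread, 3 members were lower. Mat1a, which makes the methyl donor S-adenosylmethionine in liver, had 44781, 38858 and 53498 normalized reads in the 0 ppm libraries, against 77203, 96694 and 101211 in the 0.1 ppm libraries (log2 change -1.01, SE 0.15, adjusted p = 0.00187). Ahcy, which hydrolyses S-adenosylhomocysteine, had 14015, 16831 and 18629 normalized reads in the 0 ppm libraries, against 27897, 37247 and 39683 in the 0.1 ppm libraries (log2 change -1.08, SE 0.14, adjusted p = 0.00055). Neither overlapped between diets, and both held in each alternative fit. Cth, the transsulfuration enzyme that makes cysteine, had 5631, 5272 and 4444 at 0 ppm against 8038, 8483 and 11189.6 at 0.1 ppm (log2 change -0.84, SE 0.17, adjusted p = 0.00972), and Bhmt2, a methyltransferase of homocysteine, had 3968, 4329 and 3972 at 0 ppm against 4909, 6281 and 6692 at 0.1 ppm (log2 change -0.53, SE 0.11, adjusted p = 0.0111). Cth missed the threshold without the mean-variance trend (adjusted p = 0.0616). Bhmt2 missed the threshold without 0.1 ppm b (0.0593) or 0.1 ppm c (0.0585). Sardh, the mitochondrial sarcosine dehydrogenase, had 12506, 14557 and 13351 at 0 ppm against 16799.6, 19038 and 21599 at 0.1 ppm (log2 change -0.50, SE 0.10, adjusted p = 0.00994). Sardh missed the threshold without 0 ppm a (0.0505) or 0.1 ppm c (0.0523). Cbs, which condenses homocysteine with serine at the start of transsulfuration, went the other way, with 8338, 7577 and 6108 normalized reads in the 0 ppm libraries, against 5502, 5171 and 5048 in the 0.1 ppm libraries (log2 change 0.48, SE 0.10, adjusted p = 0.0129). Its groups did not overlap. Cbs missed the threshold without 0 ppm a (0.0632), 0.1 ppm b (0.0553) or 0.1 ppm c (0.0582). Csad, which makes hypotaurine, had 7453, 9449 and 4803 at 0 ppm against 3339, 3983 and 3813 at 0.1 ppm without a call (adjusted p = 0.0547). In 11 of the 12 called genes of this list both higher diets averaged nearer to 0.1 ppm than to 0 ppm, and so did 15 of the 22 called amino acid genes.

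Many genes that fasting, glucagon and FOXO factors are known to raise in liver were lower at 0 ppm. Of 28 tested members 12 fell (42.9%, against 4.62% lower over all genes) and none rose (median log2 change -0.65). The count stayed between 11 and 14 without any single library. Ppargc1a, the coactivator of gluconeogenesis and mitochondrial genes, had 198, 185 and 119 normalized reads in the 0 ppm libraries, against 479.6, 654 and 562 in the 0.1 ppm libraries (log2 change -1.77, SE 0.19, adjusted p = 0.000262). Got1, cytosolic aspartate aminotransferase, had 2963, 3071 and 2919 normalized reads in the 0 ppm libraries, against 9726, 11603 and 12187 in the 0.1 ppm libraries (log2 change -1.90, SE 0.21, adjusted p = 0.000287). For both, the 3 libraries of each diet were close together and far from the other diet. Lpin1, a phosphatidate phosphatase and PGC-1alpha partner, had 4124, 5479 and 3188 at 0 ppm against 11277, 15899.5 and 13868 at 0.1 ppm (log2 change -1.70, SE 0.21, adjusted p = 0.00055), and Sds, serine dehydratase, had 2349.9, 2273 and 1922 at 0 ppm against 6299, 6084 and 5417 at 0.1 ppm (log2 change -1.45, SE 0.18, adjusted p = 0.000477). The forkhead factors themselves were lower, Foxo1 with 859, 1136 and 836 at 0 ppm against 1534, 1700.4 and 1437 at 0.1 ppm (log2 change -0.73, SE 0.11, adjusted p = 0.00142) and Foxo3 with 777, 1148 and 880.1 at 0 ppm against 2141, 1716 and 1659 at 0.1 ppm (log2 change -0.98, SE 0.13, adjusted p = 0.000692). Gpt2, the mitochondrial alanine aminotransferase, had 8225, 8922 and 7505 at 0 ppm against 14031, 17285 and 19593 at 0.1 ppm (log2 change -1.04, SE 0.13, adjusted p = 0.00055). All of these parted the diets without overlap. Pck1, the cytosolic entry enzyme of gluconeogenesis, had 45524, 57966 and 24931 normalized reads in the 0 ppm libraries, against 81458, 80014 and 76661 in the 0.1 ppm libraries and did not pass (adjusted p = 0.0568). Here library 0 ppm c was lowest, and every 0.1 ppm library was higher. Fgf21, a fasting and stress hormone, pointed up, with 64.5, 126 and 70.02 at 0 ppm against 6.99, 23.6 and 52.8 at 0.1 ppm (adjusted p = 0.0741), also without a call. Of 29 glycolysis and glycogen genes, 3 fell (10.3%, against 4.62% lower over all genes), a count that was 6 with 0 ppm b left out. They were Gys2, liver glycogen synthase (2887, 3301 and 4029.7 at 0 ppm against 5975, 7953 and 6548 at 0.1 ppm; log2 change -1.01, SE 0.13, adjusted p = 0.00055), Slc2a2, the hepatocyte glucose transporter (5842, 6365 and 6571 at 0 ppm against 8912, 9471 and 8859 at 0.1 ppm; log2 change -0.54, SE 0.08, adjusted p = 0.0017), and Pfkfb1, which sets fructose bisphosphate (log2 change -0.69, adjusted p = 0.00511). Ppargc1a, Got1, Lpin1, Sds, Foxo1, Foxo3, Gpt2, Gys2, Slc2a2 and Pfkfb1 held in each alternative fit. Time since feeding is not in the labels, and its part in these differences was not tested.

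Membrane carriers of amino acids and monocarboxylates changed as well, with 9 of 32 lower and 4 higher (40.6% called, against 6.64% over all genes). The count of higher members was 1 with 0 ppm a, 0.1 ppm b or 0.1 ppm c left out. Slc7a2, the cationic amino acid transporter that takes up arginine and lysine, had 7576, 7406 and 5637 normalized reads in the 0 ppm libraries, against 19546, 17417 and 19983 in the 0.1 ppm libraries (log2 change -1.48, SE 0.14, adjusted p = 9.82e-05). Slc16a7, a pyruvate and lactate transporter, had 709, 814 and 868 normalized reads in the 0 ppm libraries, against 1649.9, 1732 and 1842 in the 0.1 ppm libraries (log2 change -1.13, SE 0.08, adjusted p = 4.81e-06). In both the diets stood well apart with little scatter. Slc38a4, a neutral amino acid transporter of hepatocytes, had 21341, 20879.8 and 20269 at 0 ppm against 32718, 31448 and 31921 at 0.1 ppm (log2 change -0.62, SE 0.08, adjusted p = 0.000687). Slc16a6, a transporter that exports ketone bodies in zebrafish liver, rose, with 189, 196 and 144 at 0 ppm against 86.7, 104 and 82.1 at 0.1 ppm (log2 change 0.94, SE 0.16, adjusted p = 0.00305). Among 33 mitochondrial carriers 8 fell and 2 rose (30.3% called, against 6.64% over all genes). Slc25a51, the mitochondrial NAD carrier, had 1969, 2143 and 1414 at 0 ppm against 3041, 3251 and 3596 at 0.1 ppm (log2 change -0.86, SE 0.15, adjusted p = 0.00422), and its groups did not overlap. The count of higher carriers was 1 with 0 ppm a, 0.1 ppm a or 0.1 ppm c left out, and that of lower carriers was 5 with 0 ppm a left out and 4 with 0 ppm c, 0.1 ppm b or 0.1 ppm c left out. Slc7a2, Slc16a7, Slc38a4, Slc16a6 and Slc25a51 held in each alternative fit. The mitophagy receptors Bnip3 (1262, 1671 and 2154 at 0 ppm against 3697, 4153 and 4021 at 0.1 ppm; log2 change -1.25, SE 0.14, adjusted p = 0.000287) and Bnip3l (log2 change -0.37, adjusted p = 0.00342) were lower too, in each alternative fit.

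For some of these genes the 0.1 ppm diet, not the 0 ppm diet, was the one that stood apart from the other 3. Mfsd2a averaged 717 ± 93.7 at 0 ppm, 3101 ± 246 at 0.1 ppm, 923 ± 80.9 at 0.4 ppm and 605 ± 143 at 2.25 ppm (SD, n = 3 each). Slc7a2 averaged 6873 ± 1073 at 0 ppm, 18982 ± 1373 at 0.1 ppm, 7809.9 ± 1291 at 0.4 ppm and 5119 ± 795 at 2.25 ppm. Ppargc1a averaged 167 ± 41.97 at 0 ppm, 565 ± 87.2 at 0.1 ppm, 136 ± 18.1 at 0.4 ppm and 151 ± 23.96 at 2.25 ppm. In these 3 genes the libraries at 0, 0.4 and 2.25 ppm lay below every library at 0.1 ppm. Asl, in contrast, averaged 6272 ± 583 at 0 ppm, 16480.3 ± 3077 at 0.1 ppm, 15754 ± 1177 at 0.4 ppm and 18569 ± 1714 at 2.25 ppm, and Fmo5, a flavin monooxygenase, averaged 13829.9 ± 736 at 0 ppm, 32679 ± 3397 at 0.1 ppm, 34931 ± 1159 at 0.4 ppm and 38739 ± 2495 at 2.25 ppm. There the 0 ppm diet was the low one. Of the 834 lower genes, 358 had both higher diets nearer to 0.1 ppm, 277 had both nearer to 0 ppm and 199 were split. For the 364 higher genes these numbers were 140, 115 and 109. Among called fasting genes, 2 of 12 had both higher diets nearer to 0.1 ppm and 6 nearer to 0 ppm, while called selenoproteins split 5 and 2 of 8. These placings are descriptions of means, since the 0.1 ppm libraries enter both sides.

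**Figure D4:**
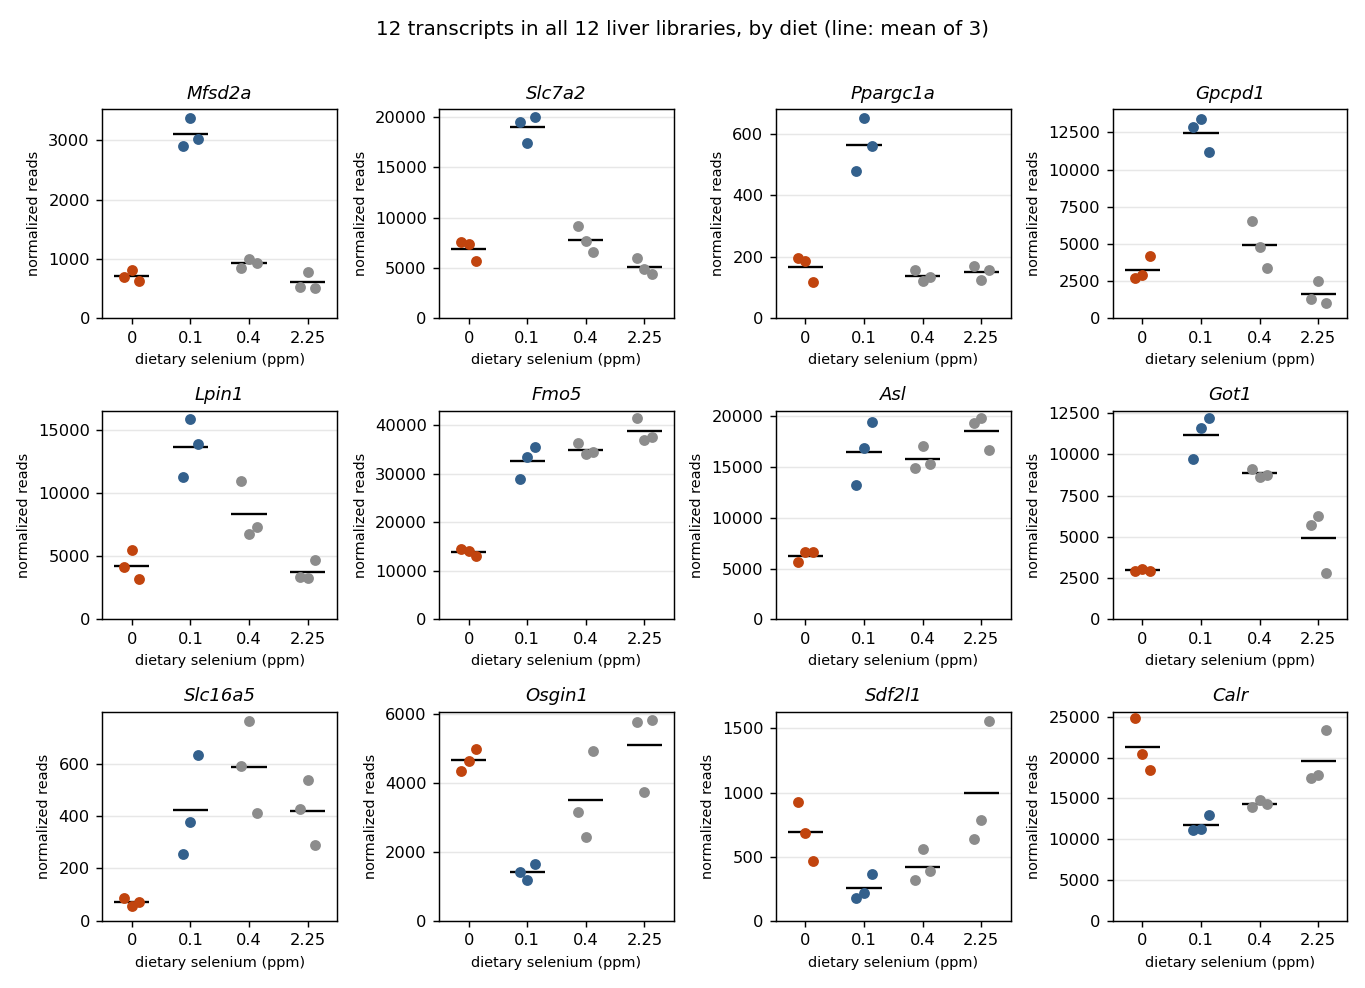
Each panel shows 1 transcript in all 12 liver libraries, in normalized reads on an axis from 0, by dietary selenium from 0 to 2.25 ppm, with the mean of 3 as a line. Mfsd2a, Slc7a2 and Ppargc1a are high at 0.1 ppm alone, with Mfsd2a at 3101 there, while Fmo5 and Asl are low at 0 ppm alone. Osgin1 is lowest at 0.1 ppm.

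Fatty acid oxidation and PPARA target genes were lower in 15 of 51 cases and higher in 1 (median log2 change -0.28). Called members made up 31.4%, against 6.64% over all genes. By their means, 4 of the 16 called genes had both higher diets nearer to 0.1 ppm, 7 had both nearer to 0 ppm and 5 were split. The count of lower members was 7 with 0 ppm a, 0.1 ppm b or 0.1 ppm c left out and 27 with 0 ppm b left out, and that of higher members was 0 with 0 ppm a, 0 ppm b, 0.1 ppm a or 0.1 ppm b left out. Cpt1a, which admits long-chain fatty acids to mitochondria, had 9042, 9075 and 11474 normalized reads in the 0 ppm libraries, against 15092, 16832 and 15999.8 in the 0.1 ppm libraries (log2 change -0.70, SE 0.13, adjusted p = 0.00486). Eci2, an enoyl-CoA isomerase, had 3608, 4048 and 3516 at 0 ppm against 5591, 5697 and 5354 at 0.1 ppm (log2 change -0.58, SE 0.08, adjusted p = 0.00132), and Decr2, of peroxisomal oxidation, had 3181, 3930.1 and 3858 at 0 ppm against 5241, 5539 and 5598 at 0.1 ppm (log2 change -0.58, SE 0.09, adjusted p = 0.0017). Slc27a2, a very-long-chain acyl-CoA synthetase, had 21667, 26671 and 24302 at 0 ppm against 37166, 35217 and 37336 at 0.1 ppm (log2 change -0.60, SE 0.10, adjusted p = 0.00336). None of these 4 overlapped between diets, and Cpt1a, Eci2, Decr2, Slc27a2 and Acot12 held in each alternative fit, Acot12, an acetyl-CoA hydrolase, with a log2 change of -0.65. Acsl1 had 19847, 30036 and 20716 at 0 ppm against 30381, 36217 and 32984 at 0.1 ppm without a call (adjusted p = 0.0576). Fat synthesis was mixed, with 5 of 27 genes higher and 3 lower (29.6% called, against 6.64% over all genes). Mlxipl, which encodes the carbohydrate-responsive factor ChREBP, had 7017, 8631 and 7285 normalized reads in the 0 ppm libraries, against 4425, 4155 and 4438 in the 0.1 ppm libraries (log2 change 0.81, SE 0.11, adjusted p = 0.000926), with all 0 ppm libraries above. Pnpla5, a lipase of the patatin family, had 63.4, 38.8 and 17.8 at 0 ppm against 4.19, 5.55 and 2.93 at 0.1 ppm (log2 change 2.83, SE 0.53, adjusted p = 0.00651), a low transcript. Both held in each alternative fit. Thrsp, usually induced together with fat synthesis, was lower, with 7435, 8734 and 8271 at 0 ppm against 10494, 15380.3 and 14652 at 0.1 ppm (log2 change -0.71, SE 0.14, adjusted p = 0.00843), and so was Lpin2, with 6757, 7920.1 and 4148 at 0 ppm against 13919, 12318 and 13804 at 0.1 ppm (log2 change -1.14, SE 0.18, adjusted p = 0.00276). The count of lower synthesis genes was 5 with 0.1 ppm a left out, and that of higher ones was 2 with 0 ppm a, 0.1 ppm a or 0.1 ppm c left out, 3 with 0 ppm b left out and 11 with 0 ppm c left out.

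Sterol genes leaned upward, with 7 of 34 cholesterol synthesis and uptake genes higher and 1 lower (median log2 change 0.12). Called members made up 23.5%, against 6.64% over all genes. Sc5d, a late enzyme of the pathway, had 11151, 10702 and 8308 normalized reads in the 0 ppm libraries, against 7026, 6725 and 6542 in the 0.1 ppm libraries (log2 change 0.56, SE 0.11, adjusted p = 0.00815), and Nsdhl, an enzyme before it, had 1984, 1821 and 2153 at 0 ppm against 1486, 1391 and 1419.6 at 0.1 ppm (log2 change 0.47, SE 0.10, adjusted p = 0.015). Both parted the diets. Nsdhl missed the threshold without 0 ppm a (0.0536), 0.1 ppm b (0.0663) or 0.1 ppm c (0.0558). The number of higher members was 1 with 0 ppm a, 0.1 ppm b or 0.1 ppm c left out, 3 with 0 ppm c left out and 4 with 0.1 ppm a left out. Abcg5, a subunit of the transporter that secretes sterols into bile, fell, with 1273, 1601 and 1505 normalized reads in the 0 ppm libraries, against 3203, 2587 and 2269 in the 0.1 ppm libraries (log2 change -0.87, SE 0.16, adjusted p = 0.00609). Of 23 bile acid genes 5 fell and 2 rose (30.4% called, against 6.64% over all genes). Akr1d1, the reductase that shapes the bile acid ring system, had 2648, 3064 and 2543 at 0 ppm against 4048, 5199.9 and 5449.6 at 0.1 ppm (log2 change -0.82, SE 0.13, adjusted p = 0.00211), and Slco1a4, an uptake transporter, had 428, 652 and 538 at 0 ppm against 1191, 1396 and 1843 at 0.1 ppm (log2 change -1.45, SE 0.23, adjusted p = 0.00225). Neither overlapped. Cyp27a1, of the acidic pathway, had 9100.1, 11069.7 and 8394 at 0 ppm against 12537, 13612 and 14882 at 0.1 ppm (log2 change -0.53, SE 0.10, adjusted p = 0.00651). Cyp7a1, the rate-limiting enzyme of the classic pathway, had 2529, 3202 and 6159 normalized reads in the 0 ppm libraries, against 6100.4, 10697 and 14989 in the 0.1 ppm libraries (log2 change -1.43, SE 0.34, adjusted p = 0.0232), and here library 0 ppm c lay slightly above 0.1 ppm a. Cyp7a1 missed the threshold without 0 ppm a (0.111), 0 ppm b (0.0616), 0.1 ppm b (0.0887) or 0.1 ppm c (0.109). Abcb11, the bile salt export pump, rose, with 12965, 13154 and 8308 at 0 ppm against 7696, 6918 and 6313 at 0.1 ppm (log2 change 0.69, SE 0.15, adjusted p = 0.012). Abcb11 missed the threshold without 0 ppm a (0.0627) or 0.1 ppm c (0.0612). Abcg5, Akr1d1 and Slco1a4 held in each alternative fit. The count of lower bile acid genes was 3 with 0.1 ppm b or 0.1 ppm c left out, and that of higher ones was 0 with 0 ppm a or 0.1 ppm c left out and 1 with 0 ppm c, 0.1 ppm a or 0.1 ppm b left out.

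Part of the genes for handling foreign compounds were lower. Of 39 tested genes of the CAR and PXR response 10 fell (25.6%, against 4.62% lower over all genes) and none rose (median log2 change -0.35). The count was 6 with 0 ppm a left out and 5 with 0.1 ppm b or 0.1 ppm c left out. By their means, 4 of the 10 called genes had both higher diets nearer to 0.1 ppm, 5 had both nearer to 0 ppm and 1 was split. The receptors themselves were among them, Nr1i2 (PXR) with 1422, 1496 and 1123 normalized reads in the 0 ppm libraries, against 2125, 2286 and 2808 in the 0.1 ppm libraries (log2 change -0.84, SE 0.14, adjusted p = 0.00348) and Nr1i3 (CAR) with 651, 1039 and 938 at 0 ppm against 1425, 1745 and 1871 at 0.1 ppm (log2 change -0.96, SE 0.17, adjusted p = 0.00407). Neither overlapped between diets. Por, the reductase that supplies electrons to microsomal cytochromes P450, had 5747, 5541 and 9625 normalized reads in the 0 ppm libraries, against 15785, 20644 and 22799 in the 0.1 ppm libraries (log2 change -1.53, SE 0.19, adjusted p = 0.00055), and library 0 ppm c was nearest to the 0.1 ppm libraries. Sult1d1, a sulfotransferase, had 2120.1, 2458 and 2484 at 0 ppm against 4657, 5749.6 and 5712 at 0.1 ppm (log2 change -1.19, SE 0.13, adjusted p = 0.000281), and Cyp2a5, a coumarin hydroxylase, had 17296, 18458 and 17599 at 0 ppm against 27068, 31223 and 33673 at 0.1 ppm (log2 change -0.78, SE 0.10, adjusted p = 0.00055). Cyp2b10, long used as a readout of CAR, had 1469, 3363 and 831 at 0 ppm against 3501, 5426 and 7884 at 0.1 ppm (log2 change -1.73, SE 0.38, adjusted p = 0.0145). Cyp2b10 missed the threshold without 0 ppm a (0.0591), 0.1 ppm b (0.0576) or 0.1 ppm c (0.0733). Reads of the Cyp2 family may be shared between close paralogs. Flavin monooxygenases, which oxidize nitrogen, sulfur and selenium atoms of small molecules, were lower in 4 of 5 tested genes (80%, against 4.62% over all genes). The count was 1 with 0 ppm a, 0.1 ppm b or 0.1 ppm c left out. Fmo5 had 14434, 14045 and 13010.4 normalized reads in the 0 ppm libraries, against 28953, 33479 and 35604 in the 0.1 ppm libraries (log2 change -1.24, SE 0.10, adjusted p = 1.64e-05), with a gap between diets that no library bridged. Fmo1 had 4357, 4626 and 4521 at 0 ppm against 4946, 7492 and 7267 at 0.1 ppm (log2 change -0.52, SE 0.12, adjusted p = 0.0223), and Fmo2 had 145, 274 and 341 at 0 ppm against 352, 936 and 821 at 0.1 ppm (log2 change -1.44, SE 0.34, adjusted p = 0.0216). Fmo1 missed the threshold without 0 ppm a (0.0849), 0.1 ppm b (0.108) or 0.1 ppm c (0.104). Fmo2 missed the threshold without 0 ppm a (0.0985), 0.1 ppm b (0.106) or 0.1 ppm c (0.0962). Nr1i2, Nr1i3, Por, Sult1d1, Cyp2a5 and Fmo5 held in each alternative fit.

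Part of the genes of the endoplasmic reticulum stress response were higher. Of 30 tested genes of the unfolded protein response 10 rose and none fell (median log2 change 0.49), against 2.02% higher over all genes, and the count was 5 with 0 ppm a left out, 16 with 0 ppm c left out, 6 with 0.1 ppm a left out and 4 with 0.1 ppm b left out. It was 3 without the mean-variance trend. By their means, 0 of the 10 called genes had both higher diets nearer to 0.1 ppm, 2 had both nearer to 0 ppm and 8 were split. Calr, the calcium-binding chaperone calreticulin, had 24914, 20476 and 18509 normalized reads in the 0 ppm libraries, against 11085, 11209 and 12942 in the 0.1 ppm libraries (log2 change 0.85, SE 0.13, adjusted p = 0.00151). It had 13892, 14834 and 14336 at 0.4 ppm and 17439, 17840 and 23396 at 2.25 ppm. Pdia6, a disulfide isomerase, had 8156, 6989.5 and 6247 at 0 ppm against 4767, 4135 and 4476 at 0.1 ppm (log2 change 0.67, SE 0.13, adjusted p = 0.00703), and Ern1, the stress sensor IRE1alpha, had 1936, 2234 and 2342 at 0 ppm against 1416, 1299 and 1398 at 0.1 ppm (log2 change 0.66, SE 0.12, adjusted p = 0.00526). In all 3, every 0 ppm library was above every 0.1 ppm library, and the calls held in each alternative fit. Derl2, which helps export misfolded proteins, had 2331, 2559 and 2048 at 0 ppm against 1583, 1624 and 1550.1 at 0.1 ppm (log2 change 0.54, SE 0.11, adjusted p = 0.0089), and Xbp1, the factor that IRE1alpha activates by splicing, had 4941, 4398 and 7119 at 0 ppm against 3598, 3408 and 3021 at 0.1 ppm (log2 change 0.69, SE 0.15, adjusted p = 0.0166), highest in 0 ppm c. Xbp1 missed the threshold without 0.1 ppm b (0.0553) or 0.1 ppm c (0.0767). Sdf2l1, a chaperone partner, had 925, 687 and 464 normalized reads in the 0 ppm libraries, against 179, 218 and 367 in the 0.1 ppm libraries (log2 change 1.45, SE 0.34, adjusted p = 0.0218), with 0 ppm c and 0.1 ppm c closest to each other. Sdf2l1 missed the threshold without 0 ppm a (0.105), 0.1 ppm a (0.0765) or 0.1 ppm b (0.0884). Hspa5 (BiP), the central chaperone of the compartment, had 24794, 22391 and 13321 normalized reads in the 0 ppm libraries, against 11642, 12991 and 18332 in the 0.1 ppm libraries and did not pass (adjusted p = 0.307). Its diets overlapped, since 0 ppm c fell in the range of the 0.1 ppm libraries. Canx, calnexin, had 8721, 8337 and 7232 at 0 ppm against 6579, 6699 and 7165 at 0.1 ppm (adjusted p = 0.118).

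Some of these genes carry the ER stress element, bound by ATF6 with NF-Y. The letters CCAAT, then 9 bases of any kind, then CCACG, sought on both strands in the 250 bases before and 50 after each RefSeq transcription start (GRCm38.p6), were found in 9 of the 25 matched genes of the list (36%) and in 39 of 32851 promoters (0.119%). Of the 9, only 2 were called, Calr and Pdia6, while Hspa5, Hsp90b1, Canx, Creld2, Derl3, Dnajc3 and Syvn1 were not. In the whole list 10 of 30 were called. A listed gene counted once if any of its promoters matched, while the share over all promoters counted each of the 32851 promoters, of 27025 gene symbols. The 2 shares are thus in unlike units, here and for the other motifs below. A match describes letters, not binding. It was 1 of 13 motifs searched, and the windows shown were chosen after the matches were seen. They are given with capitals for the fixed letters of the element, which in Calr lies on the opposite strand.
Calr (chr8:84847050-84847118, minus strand): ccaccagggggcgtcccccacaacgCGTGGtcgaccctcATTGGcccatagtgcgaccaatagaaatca
Pdia6 (chr12:17266466-17266534, plus strand): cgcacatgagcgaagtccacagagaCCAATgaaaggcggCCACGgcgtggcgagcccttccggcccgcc
Hspa5 (chr2:34772000-34772068, plus strand): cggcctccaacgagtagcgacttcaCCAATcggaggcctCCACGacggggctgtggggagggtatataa
Calr and Pdia6 thus share the element with Hspa5, whose libraries overlapped between diets. The related TGACGTGG element was found in none of the 25 matched genes and in 0.676% of promoters.

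Targets of the amino acid and integrated stress factor ATF4 were partly higher, with 7 of 37 up and 2 down (median log2 change 0.16). Called members made up 24.3%, against 6.64% over all genes. The count of higher members was 4 with 0 ppm a or 0.1 ppm b left out. That of lower members was 1 with 0 ppm a, 0 ppm b, 0 ppm c, 0.1 ppm a or 0.1 ppm b left out. Atf5, a factor downstream of ATF4, had 5625, 5106 and 3518 normalized reads in the 0 ppm libraries, against 2132, 2136 and 1901 in the 0.1 ppm libraries (log2 change 1.18, SE 0.17, adjusted p = 0.00108), and Cars, cysteinyl-tRNA synthetase, had 669.6, 702 and 469.6 at 0 ppm against 352, 293 and 349 at 0.1 ppm (log2 change 0.87, SE 0.14, adjusted p = 0.00212). Both parted the diets and held in each alternative fit. Tars, threonyl-tRNA synthetase, had 3686, 3222 and 1839.8 at 0 ppm against 1386, 1523 and 1533 at 0.1 ppm (log2 change 0.92, SE 0.19, adjusted p = 0.0104), and Cebpg, a partner of ATF4, had 1299, 1313 and 1262 at 0 ppm against 998, 1083 and 977 at 0.1 ppm (log2 change 0.34, SE 0.07, adjusted p = 0.0125). Cebpg missed the threshold without 0.1 ppm c (0.0587). Ddit4 (REDD1), an mTORC1 inhibitor that glucocorticoids and stress induce, fell, with 266, 258 and 87.9 normalized reads in the 0 ppm libraries, against 888, 757 and 472 in the 0.1 ppm libraries (log2 change -1.90, SE 0.37, adjusted p = 0.00793). Its diets did not overlap. Asns, asparagine synthetase, had 61.3, 22.5 and 70.02 at 0 ppm against 16.8, 2.78 and 23.5 at 0.1 ppm and did not pass (adjusted p = 0.0698). In the heat shock list 2 of 25 fell (8%, against 4.62% lower over all genes), a count that was 1 with 0 ppm a, 0 ppm c, 0.1 ppm b or 0.1 ppm c left out. One was Fkbp5, a co-chaperone of the glucocorticoid receptor and one of its best known targets, with 768, 1006 and 1015 normalized reads in the 0 ppm libraries, against 2246, 3497 and 4074 in the 0.1 ppm libraries (log2 change -1.78, SE 0.21, adjusted p = 0.000404), far lower at 0 ppm in each library and in each alternative fit. Hsp90aa1 overlapped between diets, with 6609.8, 5522 and 2934 at 0 ppm against 2185, 2875 and 3688 at 0.1 ppm (adjusted p = 0.171). Of 20 glucocorticoid-responsive genes 5 fell (25%, against 4.62% lower over all genes) and none rose (median log2 change -1.09). The count was 3 with 0.1 ppm b left out. By their means, 1 of the 5 called genes had both higher diets nearer to 0.1 ppm, 3 had both nearer to 0 ppm and 1 was split. Tat, tyrosine aminotransferase, had 38066, 35546 and 9843 normalized reads in the 0 ppm libraries, against 69532, 75630.2 and 77318 in the 0.1 ppm libraries (log2 change -1.64, SE 0.38, adjusted p = 0.0198), with 0 ppm c far below 0 ppm a and b. Tat missed the threshold without 0.1 ppm b (0.073) or 0.1 ppm c (0.0701). Of 35 proteasome genes 3 rose (8.57%, against 2.02% higher over all genes). The count was 0 with 0 ppm a, 0 ppm b, 0.1 ppm a or 0.1 ppm c left out, 13 with 0 ppm c left out and 1 with 0.1 ppm b left out.

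Of 27 circadian clock genes 11 were lower and 2 higher (median log2 change -0.62). Called members made up 48.15%, against 6.64% over all genes. The count of lower members was 5 with 0 ppm a or 0.1 ppm b left out and 6 with 0.1 ppm c left out. Cry2, a repressor arm of the clock, had 557, 475 and 601 normalized reads in the 0 ppm libraries, against 1067, 991 and 937 in the 0.1 ppm libraries (log2 change -0.88, SE 0.10, adjusted p = 0.000287). Its 3 libraries at 0 ppm were close together and all below. Ciart, which represses CLOCK and BMAL1, had 33.3, 58.8 and 259 normalized reads in the 0 ppm libraries, against 1033, 643 and 651 in the 0.1 ppm libraries (log2 change -3.22, SE 0.57, adjusted p = 0.00465), and Usp2, a rhythmic deubiquitinase, had 164, 214 and 819.7 normalized reads in the 0 ppm libraries, against 1697, 2022 and 1764 in the 0.1 ppm libraries (log2 change -2.57, SE 0.41, adjusted p = 0.00262). In both, 0 ppm c sat several-fold above 0 ppm a and b and still below the 0.1 ppm libraries. Per1 had 382, 667 and 478 at 0 ppm against 1843, 1339.5 and 1188 at 0.1 ppm (log2 change -1.53, SE 0.29, adjusted p = 0.00732), without overlap. Wee1, a clock-controlled kinase of cell division, had 63.4, 100.1 and 319.9 at 0 ppm against 536, 541 and 441 at 0.1 ppm (log2 change -1.98, SE 0.38, adjusted p = 0.00794). Cry1, a repressor like Cry2, had 107, 123 and 93.4 at 0 ppm against 149.6, 322 and 456 at 0.1 ppm (log2 change -1.38, SE 0.30, adjusted p = 0.0159). Cry1 missed the threshold without 0 ppm a (0.0541), 0.1 ppm b (0.0736) or 0.1 ppm c (0.0666). Nr1d1 (REV-ERBalpha), which represses Arntl, the gene of BMAL1, was higher, with 1158, 2186 and 1130.0 at 0 ppm against 874, 494 and 582 at 0.1 ppm (log2 change 1.17, SE 0.27, adjusted p = 0.0216). Nr1d1 missed the threshold without 0 ppm b (0.0633), 0.1 ppm b (0.105) or 0.1 ppm c (0.0818). Clock had 1084, 1099 and 696 at 0 ppm against 738, 672 and 675 at 0.1 ppm without a call (adjusted p = 0.132), and 0 ppm c was again unlike 0 ppm a and b. The count of higher members was 1 with 0 ppm a or 0.1 ppm a left out, 0 with 0 ppm b, 0.1 ppm b or 0.1 ppm c left out and 4 with 0 ppm c left out. Cry2, Ciart and Usp2 held in each alternative fit. The hour of collection is not in the labels, and its part in these differences was not tested. Immediate early genes had no call among 18 tested.

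The E-box bound by CLOCK and BMAL1, CACGTG, which reads the same on both strands, was in the same promoter windows of 6 of 21 matched clock genes (28.6%) and in 7.15% of all promoters. The genes were Ciart, Cry1, Per1 and Tef, all called, and Bhlhe41 and Lonrf3, which were not. In the whole clock list 13 of 27 were called, against 6.64% over all genes. The E-box was also in 4 of 23 matched fasting genes, none of them called. Among urea cycle and amino acid breakdown genes it was in 4 of 38 matched, of which 3 were called. Capitals mark the E-box. Ciart has 3 in its window, and the one farthest upstream is shown.
Ciart (chr3:95882314-95882369, minus strand): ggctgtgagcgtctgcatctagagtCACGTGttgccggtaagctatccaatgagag
Per1 (chr11:69098758-69098813, plus strand): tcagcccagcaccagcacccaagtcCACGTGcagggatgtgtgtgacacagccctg
Cry1 (chr10:85185084-85185139, minus strand): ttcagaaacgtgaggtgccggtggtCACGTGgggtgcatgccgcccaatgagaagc
The 3 windows hold the same 6 letters in different surroundings. The D-box TTATGNAA, a site of the DBP and TEF family, was found in 3 of the 21 genes (14.3%), Noct, Per1 and Per3, and in 3.38% of promoters.

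**Figure D5:**
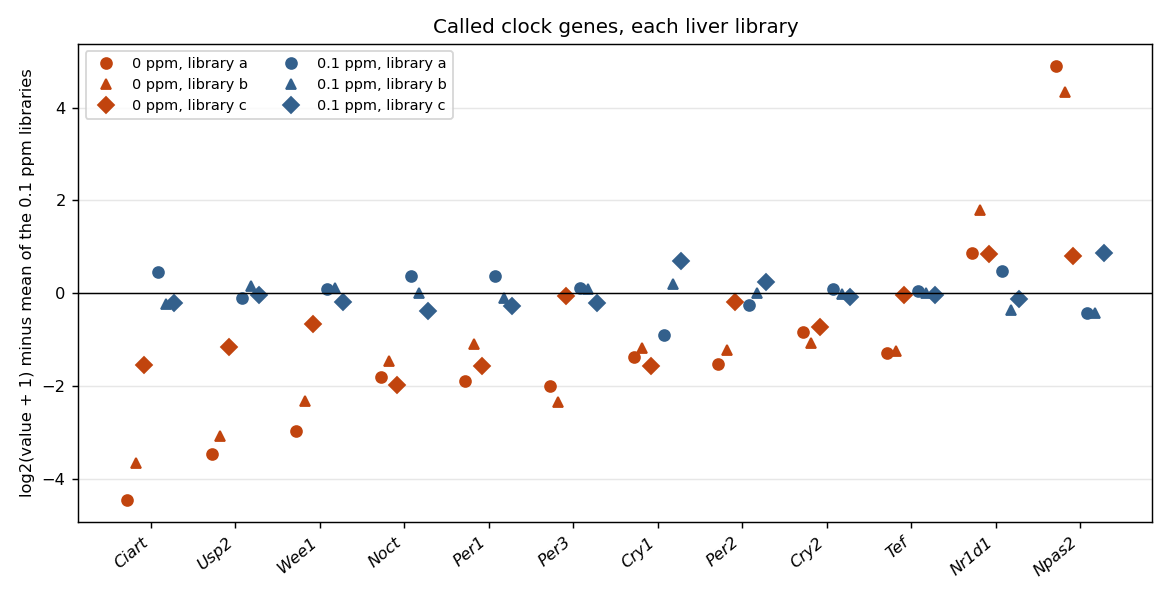
Each point is 1 liver library's log2(value + 1) of a called clock gene minus the mean of the 3 libraries at 0.1 ppm, with the 0 ppm libraries left of the 0.1 ppm libraries for each gene and the symbol marking library a, b or c. Ciart lies lowest (log2 change -3.22), Npas2 and Nr1d1 lie above 0, and library 0 ppm c departs from a and b in several genes.

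Some glutathione and NRF2 targets besides Osgin1 passed. Of 47 tested, 6 were higher and 2 lower (median log2 change 0.07). Called members made up 17.02%, against 6.64% over all genes. The count of higher members was 2 with 0 ppm a or 0.1 ppm c left out. It was 3 with 0 ppm b left out and 13 with 0 ppm c left out. The count of lower members was 1 with 0 ppm a left out and 4 with 0 ppm b left out. It was 0 with 0 ppm c, 0.1 ppm b or 0.1 ppm c left out. Gss, glutathione synthetase, had 1405, 1435 and 1214 normalized reads in the 0 ppm libraries, against 1085, 948 and 949 in the 0.1 ppm libraries (log2 change 0.44, SE 0.08, adjusted p = 0.00672). Its diets did not overlap, and the call was lost with only the 6 libraries (adjusted p = 0.0567). Gsr, glutathione reductase, had 1621, 1569 and 1119 at 0 ppm against 947, 1033 and 989.9 at 0.1 ppm (log2 change 0.52, SE 0.12, adjusted p = 0.0178). Gsr missed the threshold without 0 ppm a (0.0885), 0 ppm b (0.0569), 0.1 ppm a (0.0534) or 0.1 ppm c (0.0597). Srxn1, a target often used to read NRF2 activity, had 1485, 1141 and 956 at 0 ppm against 996, 926 and 796 at 0.1 ppm without a call (adjusted p = 0.153), and Txnrd1, a selenoprotein and NRF2 target, did not pass either. Interferon-stimulated genes leaned upward, with 51 of 60 above 0 and a median log2 change of 0.24, but only 3 passed, Ifi47, Isg15 and Stat2. That was 5% of the list, against 6.64% of all genes called in either direction and 2.02% called higher. Ifi47, an interferon-inducible GTPase, had 1182, 967 and 744 at 0 ppm against 510.4, 509 and 390.1 at 0.1 ppm (log2 change 1.02, SE 0.22, adjusted p = 0.0139). Ifi47 missed the threshold without 0 ppm a (0.0711) or 0.1 ppm c (0.0682). The count of higher interferon genes was 0 with 0 ppm a or 0.1 ppm c left out, 1 with 0 ppm b left out and 7 with 0 ppm c left out. Irgm1, a related GTPase, had 1883, 2071 and 1661 at 0 ppm against 1264, 1514 and 1220.2 at 0.1 ppm without a call (adjusted p = 0.0712).

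Plasma protein and hormone-axis genes changed in part. Of 35 acute phase genes 4 fell and 2 rose (17.1% called, against 6.64% over all genes). The list as a whole leaned upward, with 28 members above 0, 7 below and a median log2 change of 0.46. The number of lower ones was 2 with 0.1 ppm b or 0.1 ppm c left out, and that of higher ones was 1 with 0 ppm a left out, 20 with 0 ppm b left out, 4 with 0.1 ppm a left out and 0 with 0.1 ppm b or 0.1 ppm c left out. Il6ra, a chain of the IL6 receptor, had 892, 1582 and 886 normalized reads in the 0 ppm libraries, against 2149, 2354 and 2929 in the 0.1 ppm libraries (log2 change -1.19, SE 0.20, adjusted p = 0.00342), and Cd14, a coreceptor for endotoxin, had 84.2, 65.04 and 56.3 at 0 ppm against 201, 199 and 131 at 0.1 ppm (log2 change -1.35, SE 0.24, adjusted p = 0.00533). Both held in each alternative fit. Fga, the fibrinogen alpha chain, rose, with 195250.0, 98440.1 and 126411 at 0 ppm against 90935, 66471 and 67224 at 0.1 ppm (log2 change 0.86, SE 0.22, adjusted p = 0.0301), highest in 0 ppm a. Fga missed the threshold without 0 ppm a (0.116), 0.1 ppm b (0.123) or 0.1 ppm c (0.118). Hamp, the iron hormone hepcidin, had 3521, 1187 and 4032 normalized reads in the 0 ppm libraries, against 5916, 6966 and 6313 in the 0.1 ppm libraries (log2 change -1.32, SE 0.34, adjusted p = 0.0341), with 0 ppm b lowest. Hamp missed the threshold without 0.1 ppm a (0.0632), 0.1 ppm b (0.119) or 0.1 ppm c (0.0978). Its call was also lost with edgeR (adjusted p = 0.0581) and DESeq2 (adjusted p = 0.0579). In the growth hormone axis, Igf1 had 7084, 9416 and 9636 normalized reads in the 0 ppm libraries, against 12461, 12184 and 13069.7 in the 0.1 ppm libraries (log2 change -0.54, SE 0.11, adjusted p = 0.011), and Stat5a, a signal carrier of growth hormone, rose, with 322, 334 and 255 at 0 ppm against 176, 174 and 201 at 0.1 ppm (log2 change 0.72, SE 0.13, adjusted p = 0.00602). Igf1 missed the threshold without 0.1 ppm c (0.0504). Of 17 female-biased liver genes 7 were lower in these male livers (41.2%, against 4.62% over all genes) and none higher (median log2 change -1.41), most at low counts. The number was 4 with 0 ppm a left out and 1 with 0.1 ppm b or 0.1 ppm c left out. Cux2, a female-specific repressor, had 7.28, 1.251 and 2.75 at 0 ppm against 12.6, 36.1 and 30.8 at 0.1 ppm (log2 change -2.61, SE 0.57, adjusted p = 0.0147). Cux2 missed the threshold without 0.1 ppm b (0.0762) or 0.1 ppm c (0.0655). Of 22 male-biased genes 3 rose (13.6%, against 2.02% higher over all genes), a count that was 1 with 0 ppm b or 0.1 ppm b left out. Cyp2u1 was among them, with 524, 573 and 347 normalized reads in the 0 ppm libraries, against 257, 221 and 205 in the 0.1 ppm libraries (log2 change 1.05, SE 0.15, adjusted p = 0.00132), in each alternative fit.

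Some large gene groups held no calls. None of 60 nuclear genes of oxidative phosphorylation passed, although 58 of them lay below 0 with a median log2 change of -0.16. That median was -0.08 after quantile normalization, so the lean depends in part on scaling. Leaving out single libraries gave 0 to 7 lower calls in this list. Of 13 mitochondrially encoded genes 2 fell (15.4%, against 4.62% lower over all genes), and all 13 lay below 0 (median log2 change -0.23). The count of lower ones was 1 with 0 ppm a, 0 ppm c, 0.1 ppm b or 0.1 ppm c left out. None of 69 cytosolic ribosomal protein genes passed (median log2 change 0.02). In brain, the same diets gave 6 calls among 20784 genes tested (0.0289%) and 1456 genes at an unadjusted p under 0.05. Of the 6, 2 were also called in liver, where 6.64% of all genes tested passed. Among these 2 was Fmo2, lower at 0 ppm in both tissues (brain log2 change -1.05). The liver effect minus the brain effect, tested over all 24 libraries, passed for 385 of 17030 genes (2.26%). The number was 228 with liver 0 ppm a left out, 771 with 0 ppm c left out and 232 with 0.1 ppm b left out. Among the selenoproteins it passed for Gpx1, Selenow, Selenoh, Selenop, Selenoi and Msrb1. Gpx1 averaged 444.7 ± 29.8 in brain at 0 ppm against 458.9 ± 24.3 at 0.1 ppm (SD, n = 3 each).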

How the data were processed

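RNA was taken with TRIzol from pieces of liver and brain, and libraries were made with a TruSeq Stranded Total RNA kit, per the labels' protocols. Per the submitters' processing notes, STAR 2.5.2b and RSEM 1.3.0 were used, besides Trimmomatic 0.33, bcl2fastq 2.17 and limma 3.34.5, on the mm10 genome build, in roles not given, and whether counting used strand is not given in the sources used here. The deposited values are normalized signal, read counts divided by 1 size factor per library: all 525456 values came out as whole reads within 0.01 once each library's step was found. The deposited p-value column is the authors', and all 19658 of its values equal an equal-variance test on unlogged values computed here; the authors' deposited table has 2553 genes (13%) at an unadjusted p under 0.05 for 0 against 0.1 ppm in liver.

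Genes with a value of at least 1 in at least 3 of the 6 libraries were tested with limma 3.58.1 (R 4.3.3) on log2(value + 1), with a mean-variance trend and the 12 liver libraries of the 4 diets in 1 fit, as 0 minus 0.1 ppm, with Benjamini-Hochberg adjustment over all 18051 genes. Fold changes on this scale understate changes of low genes. edgeR 4.0.16 and DESeq2 1.42.0 on the recovered reads, other scalings, filters and pseudocounts, and fits without each library were alternatives. The statistics were also run on simulated counts, drawn independently for each gene and library. Those counts held no shift common to many genes of a library. The run therefore does not bear on how the calls depend on single libraries. Library depth was 12978641 to 18441926 reads. Pairs of libraries of a diet differed by 7.50 to 62.0 times what counting alone gives (chi-square per gene, 6 pairs). None was therefore counted as a duplicate, and floors cover counting error only. The pairs at 0 ppm gave 28.8 to 62.0 and those at 0.1 ppm 7.50 to 23.2. No liver pair of the higher diets exceeded 19.6. The limma fit over the 12 liver libraries set 1 spread per gene for all diets. Whether that understates the spread at 0 ppm was not tested.

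Named genes were the 15 largest called changes each way without overlap and with a mean of at least 50 in the higher diet, every selenoprotein, up to 6 called members of each of 55 lists and up to 3 uncalled ones. Not all of them are printed, and Cry1, Nr1d1, Hspa5, Krt19 and Epcam were added after their values were seen. Lists are described by counts and medians. Members, lists and rules were chosen with earlier results of these data known. Positions are those of the GENCODE annotation of GRCm38, and promoter sequences are from RefSeq (GRCm38.p6). A few genes are not reported here.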

Additional observations from a re-analysis of the deposited data

Results flagged for a closer look

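The effect of the diet differed between liver and brain, by limma's test of the difference over all 24 libraries, for 6 selenoprotein transcripts. Liver minus brain, the log2 change was -1.32 for Gpx1 (adjusted p = 1.25e-07) and -1.39 for Selenow (adjusted p = 1.25e-07). It was -1.07 for Selenoh (adjusted p = 0.00464) and -0.67 for Selenop (adjusted p = 0.00346). It was -0.39 for Msrb1 (adjusted p = 0.0295) and 0.51 for Selenoi (adjusted p = 0.0078). In brain, Selenow averaged 2318 ± 121 normalized reads at 0 ppm against 2762 ± 129 at 0.1 ppm, Selenop 3834 ± 298 against 3563 ± 297, and Selenoi 890.1 ± 48.6 against 879.5 ± 12.4 (SD, n = 3 each). Selenoh averaged 109 ± 9.13 in brain at 0 ppm against 122 ± 7.46 at 0.1 ppm, and Msrb1 143 ± 6.64 against 139 ± 7.38. None of these 6 was called in brain alone.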

How the results depend on the processing

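No paired analysis was possible because the columns carry no replicate numbers. The 1198 calls became 509 without the mean-variance trend and 428 with only the 6 libraries compared. Higher calls, 364, became 134 and 103 in these fits, 552 with DESeq2 and 618 at a threshold of 0.1. Lower calls, 834, became 375 without the trend and 325 with only the 6 libraries. Leaving out each library in turn gave 560 to 1487 calls, 121 to 575 higher and 419 to 912 lower. With edgeR 1164 genes passed, and 1079 of them were called in the limma fit. The count for liver minus brain, 385, was 229 without the trend and 228 to 771 without each liver library. Of the 184 called genes named by rule, 84 lost their call with only the 6 libraries, 91 without the trend, 83 without at least 1 library, 13 under quantile normalization and 9 with edgeR. No named gene reversed in an alternative. The cause of these changes was not tested, except that dropping libraries lowers the number that sets the spread. A gene that missed the threshold is not shown to be equal between diets.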
